A study of Mus musculus with 18 samples.

Results

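Lipoprotein and lipid transfer genes were examined in the neocortex of 7-day-old mice: Lpl, Apoe, Pltp, Abca1 and Abcg1, which are 5 of the 54446 genes in the count table. They were found by gene symbol, and each symbol matched a single row. The set was chosen on earlier results of the same libraries, in which Lpl and Pltp had passed the test between FOXP2 and GFP mice in layers 2-3 (L2-3). That comparison is therefore given here as a description with no test, and so is every difference between layers in the effect of FOXP2 that rests on it.

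The FOXP2 mice were 2 animals given human FOXP2 (huFOXP2) and 1 animal given mouse Foxp2 (moFoxp2), each together with a Gfp cDNA, and they were set against 3 GFP mice, given plasmid with no FOXP2 cDNA. All 6 were CD-1 mice, an outbred stock, whose cortex received plasmid by in utero electroporation at E14.5, when DNA placed in the ventricle is driven by electric pulses into the cells of its wall. At postnatal day 7, sagittal sections of 300 µm were dissected into L2-3, granular layer 4 (L4) and deep layers 5-6 (L5-6), and each layer of a mouse was pooled into 1 of 18 libraries of total RNA. The labels give L4 as GFP-positive and both other layers as GFP-negative, they do not say how GFP was used in the dissection, and the promoter of the plasmids is not given in the sources used here. Each sample is bulk tissue, in which fewer cells of a type and less RNA per cell cannot be told apart.

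Brain cells pass cholesterol and phospholipid to each other in lipoprotein particles that resemble high-density lipoproteins of the blood. Apoe is their main apolipoprotein and is made chiefly by astrocytes and microglia. The transporter Abca1 loads lipid-poor apolipoprotein with cholesterol and phospholipid, Abcg1 moves sterol to particles that already carry lipid, the phospholipid transfer protein Pltp moves phospholipid between particles and remodels them, and lipoprotein lipase, the product of Lpl, splits particle triglyceride into fatty acids that cells take up. In mouse macrophages and liver these genes are known targets of the liver X receptors (LXR), sterol-sensing nuclear receptors that bind DNA with a retinoid X receptor (RXR) partner at a direct repeat of a short unit.

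Pltp and Abca1 were the members whose L2-3 libraries lay higher in all 3 FOXP2 mice than in all 3 GFP mice, as did 12.3% of 15241 tested genes. The 250 bases before their RefSeq transcription starts are shown (GRCm38.p6, minus strand, chr2:164857709-164857958 for Pltp and chr4:53159896-53160145 for Abca1). RefSeq promoter entries matched 3 of the 5 members, the third being Apoe. Capitals mark the forkhead core TGTTTA, read on either strand, and in Abca1 also the paired motif described after the sequences.
Pltp: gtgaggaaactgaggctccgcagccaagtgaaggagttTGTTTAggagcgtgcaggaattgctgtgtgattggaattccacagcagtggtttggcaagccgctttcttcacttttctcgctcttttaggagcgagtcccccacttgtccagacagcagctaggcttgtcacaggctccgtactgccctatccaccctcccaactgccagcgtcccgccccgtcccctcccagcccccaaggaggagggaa
Abca1: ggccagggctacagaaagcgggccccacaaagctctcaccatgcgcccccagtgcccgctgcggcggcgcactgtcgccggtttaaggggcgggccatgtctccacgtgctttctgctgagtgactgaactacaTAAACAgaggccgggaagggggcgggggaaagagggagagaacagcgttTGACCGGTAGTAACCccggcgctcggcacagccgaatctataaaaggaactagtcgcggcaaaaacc
The Pltp window held the forkhead core on the strand of the gene, 212 bases before the start. The Abca1 window held it on the opposite strand (as TAAACA), 116 bases before the start. The same 6 letters occurred on either strand in 12.03% of 32851 RefSeq windows of equal length. The Abca1 window also held, on the opposite strand and 67 bases before the start, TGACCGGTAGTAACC, which is a match to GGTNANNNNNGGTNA, the cores of a pair of LXR units at the spacing used by LXR. That motif was chosen after the sequence was seen, does not overlap the forkhead core, and occurred on either strand in 0.621% of the windows. The LXR unit AGGTCA occurred on either strand in 14.0% of the windows and was found in none of the members' windows, and the Apoe windows, before 3 RefSeq starts, matched none of the 3 motifs. The printed windows were picked on values of the L2-3 comparison that chose the set. A match describes the letters only, and binding of FOXP2 was not tested.

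Library totals ranged from 10111149 to 23404528 counts, and the sparsest member, Abcg1, had 122 to 428 counts per library, while Apoe had 7459 to 52384. Foxp2, the gene delivered, stood at 20.2, 52.3 and 21.2 CPM (each count relative to a TMM-scaled library total) in L2-3 of huFOXP2 mouse 1, huFOXP2 mouse 2 and moFoxp2 mouse 1, against 1.77, 6.53 and 5.22 CPM in the GFP mice. In L4 it averaged 44.3 ± 17.8 CPM in FOXP2 mice, against 6.69 ± 1.80 in GFP mice (SD, n = 3 each), and in L5-6, where cortical neurons express the gene themselves, 62.2 ± 20.0 and 60.8 ± 8.09 CPM. Counts of human FOXP2 reads on the mouse gene depend on how well they align, and the labels do not say how this was handled. Of 13 markers of layer 5-6 neurons 12 were higher in L5-6 than in L2-3, and all 8 markers of layer 2-3 neurons were lower in L5-6 than in L2-3, but 5 of those 8 were higher in L4 than in L2-3. GFP mouse 1 stood apart: its L5-6 library had 7.50% mitochondrial counts, against 2.99% to 5.25% in the other 17 libraries, and the summed CPM of 10 oligodendrocyte markers was 4535 there, the highest of all. Its L2-3 library had a summed CPM of 336 over 10 markers of meningeal fibroblasts, the lowest of the 6 L2-3 libraries. The labels do not say whether mice shared a litter or a day of surgery, so p-values speak only for these 6 animals. P-values between constructs measure the spread between animals within a group. Those that compare layers, with the mouse as a block, measure how far layer differences vary between mice of a group.

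Levels between the genes were compared per kilobase of exon. Apoe was by far the most abundant, at 701 CPM per kb in L2-3, 479 in L4 and 585 in L5-6 (means of 6 mice). Pltp followed in L2-3 with 56.4 CPM per kb but dropped behind Lpl in L4, where Pltp had 14.2 and Lpl 23.1. In L5-6 Pltp stood at 12.4, Abca1 at 11.9 and Lpl at 10.1 CPM per kb, and Abcg1 was the scarcest in every layer, at 1.82, 2.24 and 2.45 in L2-3, L4 and L5-6.

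**Figure D1:**
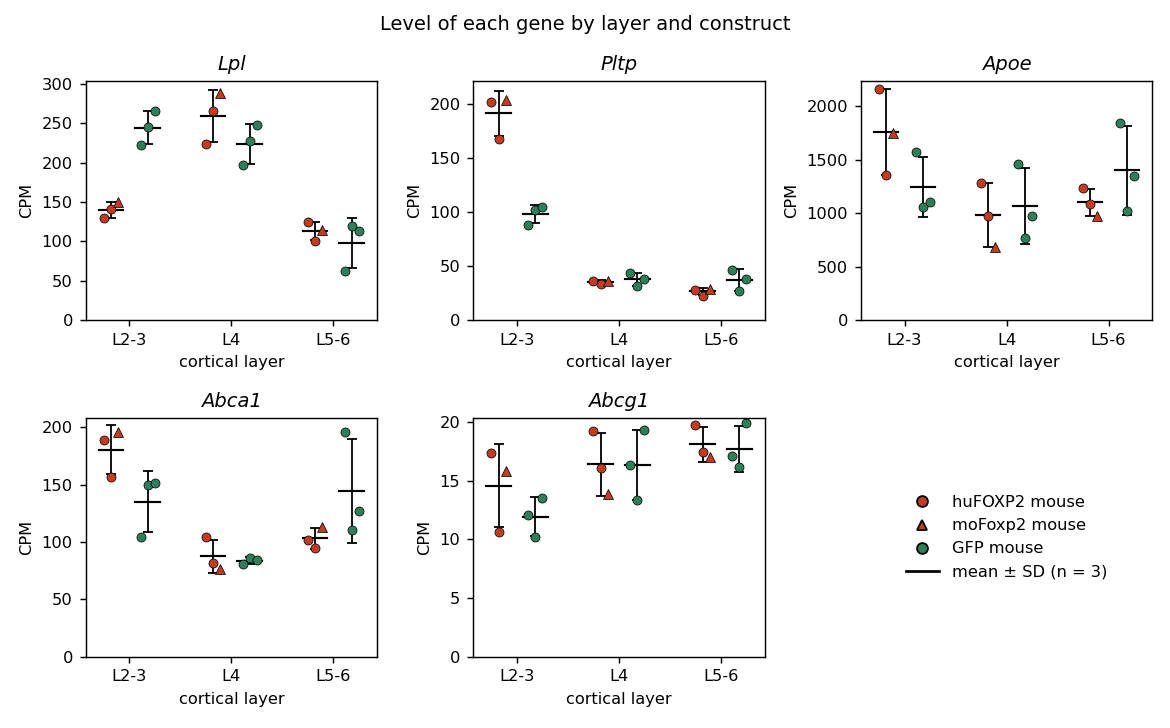
Level of each gene (CPM, linear axis from 0) in L2-3, L4 and L5-6, with FOXP2 mice left of GFP mice in each layer; points are single libraries and bars the mean ± SD of 3 mice. In L2-3 the 3 FOXP2 libraries lie below the GFP libraries for Lpl and above them for Pltp and Abca1, and in L4 and L5-6 the groups overlap for all 5 genes. Of 15241 genes tested in L2-3, 12.3% lay higher and 8.27% lower without overlap.

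Lpl (ENSMUSG00000015568.16, mm10 chromosome 8, 68880491 to 68907448, plus strand) was highest in L4 of FOXP2 mice and in L2-3 of GFP mice. In L2-3 it stood at 129.8 CPM in huFOXP2 mouse 1, 142 in huFOXP2 mouse 2 and 149.6 in moFoxp2 mouse 1, against 223, 245 and 265 CPM in the GFP mice. The groups did not overlap, and 8.27% of 15241 tested genes lay lower in FOXP2 mice without overlap. The human and mouse constructs lay side by side. The means were 140.3 ± 9.92 CPM in FOXP2 mice, against 245 ± 21.2 in GFP mice (SD, n = 3 each), a log2 fold change of -0.81 ± 0.10 (SE, not tested). In L4 Lpl stood at 224, 266 and 289 CPM in the FOXP2 mice and 197, 227 and 248 CPM in the GFP mice. In L5-6 it stood at 124, 101 and 114 CPM in the FOXP2 mice and 61.8, 119 and 113 CPM in the GFP mice, the lone low library being that of GFP mouse 1. Both deeper layers overlapped between constructs.

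Ordered by mean, Lpl was highest in L4 of FOXP2 mice, L2-3 of GFP mice and L4 of GFP mice, which are neighbours whose ranges overlapped. The L2-3 libraries of FOXP2 mice lay clear below these and clear above the L5-6 libraries of FOXP2 mice. L5-6 was the lowest layer in each of the 6 mice, whereas the highest layer was L4 in all 3 FOXP2 mice and L2-3 in all 3 GFP mice. That contrast between constructs rests on the L2-3 values on which Lpl was chosen, and was not tested. Among 11284 genes with a mean of at least 5 CPM, the levels most like those of Lpl over the 18 libraries were of Pknox2 (Pearson r of log2 CPM 0.962), Tmem65 (0.962), Stradb (0.957), Abr (0.955) and Mgat5b (0.955). For each member this search left out genes that failed the count filter, and symbols made of Gm and a number or ending in Rik. Those correlations are descriptions, since the libraries share mice and layers.

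Apoe (ENSMUSG00000002985.16, chromosome 7, 19696109 to 19699188, minus strand) overlapped between FOXP2 and GFP mice in every layer. In L2-3 it stood at 2161, 1359 and 1749 CPM in huFOXP2 mouse 1, huFOXP2 mouse 2 and moFoxp2 mouse 1, against 1568, 1053 and 1106 CPM in the GFP mice (log2 fold change 0.49 ± 0.21, not tested). In L4 the values were 1283, 978 and 684 CPM in FOXP2 mice, against 1460, 766 and 975 in GFP mice. In L5-6 they were 1234, 1089 and 977 CPM in FOXP2 mice, against 1843, 1017 and 1344 in GFP mice, with GFP mouse 1 highest. All neighbours in the order of the 6 group means overlapped, from 1757 ± 401 CPM in L2-3 of FOXP2 mice down to 982 ± 299.7 CPM in L4 of FOXP2 mice. The genes most like Apoe were Csrp1 (r = 0.971), Slc9a3r1 (0.945), Npc2 (0.939), Aldh7a1 (0.934) and Exosc5 (0.926). Npc2 encodes a carrier of cholesterol in lysosomes.

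Pltp (ENSMUSG00000017754.13, chromosome 2, 164839518 to 164857711, minus strand), whose promoter is printed above, was concentrated in L2-3. It stood there at 202, 167 and 204 CPM in the huFOXP2 and moFoxp2 mice, in the same order of mice, against 88.2, 102 and 105 CPM in the GFP mice. The groups did not overlap, and 12.3% of 15241 tested genes lay higher in FOXP2 mice without overlap. The means were 191 ± 20.5 CPM in FOXP2 mice, against 98.1 ± 8.74 in GFP mice, a log2 fold change of 0.96 ± 0.11 (not tested). In L4 it lay in a narrow band, at 36.5, 33.3 and 35.8 CPM in FOXP2 mice, against 43.5, 31.5 and 38.4 in GFP mice. In L5-6 it stood at 28.1, 22.7 and 29.0 CPM in FOXP2 mice, against 46.4, 26.9 and 37.8 in GFP mice. The 2 L2-3 groups lay clear above all others and clear of each other, and L5-6 of FOXP2 mice was the lowest group.

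Pltp shares 495 exon bases with Ctsa, a lysosomal protease gene on the opposite strand. The use of strand in the counting is not given in the sources used here. How reads in the shared bases were assigned, to Pltp, to Ctsa or to neither, is therefore not known. Ctsa itself averaged 103 ± 5.57 CPM in FOXP2 mice, against 77.8 ± 4.35 in GFP mice in L2-3, and 61.7 ± 7.33 and 62.9 ± 10.01 CPM in L4. Its difference between L4 and L2-3 over all mice was -0.53 ± 0.07 on the log2 scale, against -1.92 for Pltp; Ctsa was chosen after its values were seen. The genes most like Pltp were Fcgrt (r = 0.982), Cdh5 (0.981), Cavin1 (0.981), Aplnr (0.979) and Tie1 (0.978). Cdh5 and Tie1 are genes of endothelial cells, the lining of blood vessels, and Cavin1 encodes a coat protein of caveolae.

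Abca1 (ENSMUSG00000015243.4, chromosome 4, 53030787 to 53159895, minus strand), the other gene shown with its promoter, stood in L2-3 at 189, 156 and 196 CPM in huFOXP2 mouse 1, huFOXP2 mouse 2 and moFoxp2 mouse 1, against 104, 149.5 and 151 CPM in the GFP mice. The FOXP2 libraries lay above the GFP libraries, though huFOXP2 mouse 2 only just, and the log2 fold change was 0.42 ± 0.15 (not tested) and 0.27 without GFP mouse 1. In L4 the values were 104, 81.7 and 76.9 CPM in FOXP2 mice, against 80.6, 86.0 and 84.5 in GFP mice. In L5-6 they were 102, 94.9 and 113 CPM in FOXP2 mice, against 196, 110.1 and 127 in GFP mice. GFP mouse 1 had the lowest Abca1 of the L2-3 libraries and the highest of the L5-6 libraries. The genes most like Abca1 were Aff1 (r = 0.973), Slc7a2 (0.973), Cbfb (0.971), Bmpr1a (0.970) and Fam107b (0.970).

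Abcg1 (ENSMUSG00000024030.6, chromosome 17, 31057675 to 31117988, plus strand, positions from a later version of the same identifier) was low and overlapped between FOXP2 and GFP mice in every layer. In L2-3 it stood at 17.3, 10.6 and 15.8 CPM in FOXP2 mice, against 12.05, 10.2 and 13.6 in GFP mice, and the groups overlapped (log2 fold change 0.29 ± 0.21, not tested). In L4 it averaged 16.4 ± 2.69 CPM in FOXP2 mice, against 16.3 ± 3.00 in GFP mice, and in L5-6 18.1 ± 1.46 and 17.7 ± 1.95 CPM (SD, n = 3 each). All neighbours in the order of its 6 group means overlapped. Abcg1 resembled no gene as closely as the other members did, the nearest being Eya3 (r = 0.883), Rtn4ip1 (0.863), Nab2 (0.852), Zfp629 (0.835) and Myadm (0.832).

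Over the 18 libraries Pltp and Abca1 correlated at 0.73, Apoe and Abca1 at 0.70 and Pltp and Apoe at 0.59 (Pearson r of log2 CPM, as a description). Lpl correlated at -0.50 with Apoe, -0.48 with Abca1 and 0.09 with Pltp. Abcg1, the partner of Abca1 in sterol efflux, correlated at -0.16 with Abca1, -0.49 with Pltp, -0.38 with Lpl and 0.16 with Apoe.

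In the comparison of FOXP2 with GFP mice in L2-3, the groups did not overlap for 2 members in the higher direction and 1 in the lower, where 12.3% of 15241 tested genes lay higher and 8.27% lower without overlap. Adjusted p-values (edgeR quasi-likelihood test, Benjamini-Hochberg, threshold 0.05) called 0.0328% of the genes higher and 0.0394% lower there, with Pltp among the higher genes and Lpl among the lower, which is how they came into the set. Nothing is read from those calls, and both were lost with RLE library factors and when any mouse other than GFP mouse 1 was left out. The plot of FOXP2 minus GFP shows the same genes by layer.

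**Figure D2:**
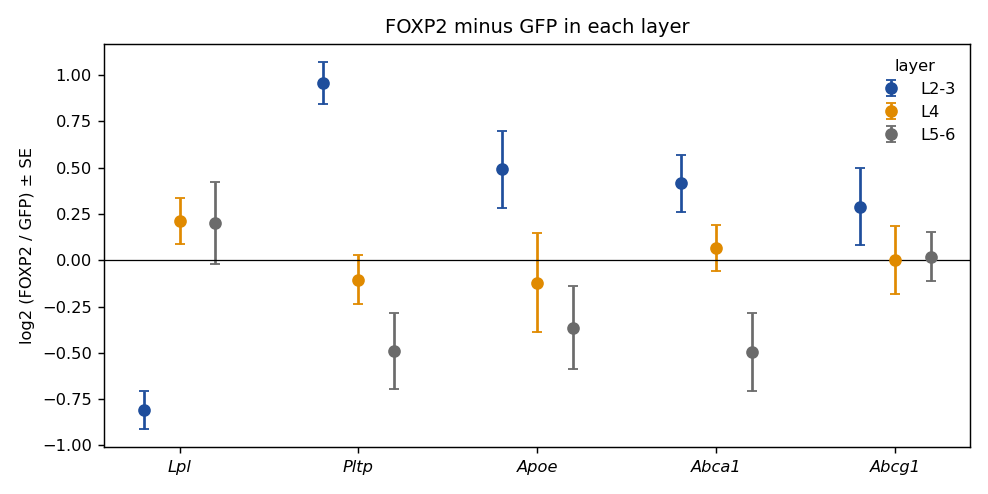
Log2 fold change of FOXP2 over GFP mice (points) ± SE (bars) for the 5 genes in L2-3, L4 and L5-6, 3 mice against 3 in each layer. L2-3 holds the lowest value for Lpl (-0.81) and the highest for Pltp (0.96), and the L4 values lie between -0.12 and 0.21; L2-3 values are shown without a test because genes were chosen on them.

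In L4, which the labels give as GFP-positive, none of the 5 genes passed the test between FOXP2 and GFP mice, although Foxp2 itself rose by 2.75 ± 0.30 on the log2 scale there (edgeR adjusted p = 0.0247). The log2 fold change of Foxp2 was of like size in L2-3, labelled GFP-negative, at 2.78 ± 0.51 (adjusted p = 0.0829), so these counts do not single out L4 as the layer of the delivered gene. The log2 fold changes were 0.21 ± 0.12 for Lpl, -0.10 ± 0.13 for Pltp, -0.12 ± 0.27 for Apoe, 0.07 ± 0.13 for Abca1 and 0.00 ± 0.18 for Abcg1. Each adjusted edgeR p was 0.9999. At an unadjusted p under 0.05 there were 0 members, and 457 of 14544 genes tested. DESeq2 also called 0 members. Only 0.0275% of 14544 genes were called in this layer, and 3.81% lay higher and 3.87% lower without overlap, so a count of 0 of 5 is near the background.

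In L5-6 none of the 5 genes passed either. The log2 fold changes were -0.49 ± 0.20 for Pltp, -0.50 ± 0.21 for Abca1 and -0.36 ± 0.23 for Apoe (edgeR adjusted p = 0.713 for each), and 0.20 ± 0.22 for Lpl and 0.02 ± 0.13 for Abcg1. Unadjusted edgeR p was under 0.05 for Pltp (0.0440) and Abca1 (0.0463), as it was for 946 of 15330 genes tested. DESeq2 called 0 members. The background was again thin, with 0.0196% of 15330 genes called and 6.71% higher and 6.85% lower without overlap. Without GFP mouse 1, whose library stood apart, the values shrank to -0.29 for Pltp, -0.20 for Abca1 and -0.10 for Apoe, and that of Lpl became -0.04. Summed CPM of 10 astrocyte markers was 3737 to 3986 in L5-6 of FOXP2 mice and 3138 to 5814 in GFP mice, with GFP mouse 1 highest, and that of 10 microglia markers was 333 to 473 and 359 to 808. The 7 markers of choroid plexus and ependyma summed to 6.50 to 15.3 CPM in L5-6 of FOXP2 mice and 26.3 to 49.2 CPM in GFP mice. Their part in these values was not tested.

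The effect of FOXP2 in L5-6 was not distinguishable from that in L4 for any of the 5 genes. The difference of the 2 log2 fold changes was -0.37 ± 0.19 for Pltp and -0.53 ± 0.27 for Abca1 (edgeR adjusted p = 0.803 for both), -0.21 ± 0.18 for Apoe, 0.03 ± 0.19 for Lpl and 0.02 ± 0.17 for Abcg1. It called 0 members, and 0.00627% of 15952 genes, a single gene, which was Foxp2. At an unadjusted p under 0.05 there were 0 members, and 892 of 15952 genes. DESeq2 called 0 members. Set against L2-3, and given without a test because L2-3 chose the genes, the effect in L4 was higher by 1.02 ± 0.19 for Lpl and lower for Pltp (-1.04 ± 0.18). In L5-6 it was higher by 1.05 ± 0.19 for Lpl and lower for Pltp (-1.40 ± 0.18), Abca1 (-0.88 ± 0.26) and Apoe (-0.82 ± 0.19).

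Between layers, the 6 mice were compared within each animal, and the layer effects of FOXP2 and GFP mice were averaged. All 5 genes differed between L4 and L2-3. Pltp was lower in L4 than in L2-3, with a log2 difference of -1.92 ± 0.09 (SE, edgeR adjusted p = 1.01e-08), averaging 36.5 ± 4.22 CPM in L4 and 145 ± 52.8 CPM in L2-3 (SD, n = 6), and it was lower in 6 of 6 mice. Abca1 (-0.87 ± 0.13, adjusted p = 0.000151) and Apoe (-0.56 ± 0.09, adjusted p = 0.000292) were also lower, both in 6 of 6 mice. Abca1 averaged 85.6 ± 9.61 CPM in L4 against 158 ± 32.9 CPM in L2-3, and Apoe 1024 ± 298 CPM in L4 against 1499 ± 419 CPM in L2-3. Abcg1 was higher in L4 by 0.31 ± 0.09 (adjusted p = 0.0124), in 5 of 6 mice.

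Lpl was higher in L4 by 0.38 ± 0.09 (edgeR adjusted p = 0.00488), but this mean joins unlike values: 0.89 ± 0.13 in FOXP2 mice and -0.13 ± 0.13 in GFP mice. The single-mouse differences of Lpl were 0.79, 0.91 and 0.95 in huFOXP2 mouse 1, huFOXP2 mouse 2 and moFoxp2 mouse 1, and -0.18, -0.11 and -0.10 in the GFP mice. Their contrast between constructs follows from the L2-3 values on which Lpl was chosen, and was not tested. The other genes kept their sign in both constructs, at -2.44 in FOXP2 and -1.40 in GFP mice for Pltp, -1.04 and -0.69 for Abca1, -0.86 and -0.25 for Apoe, and 0.17 and 0.45 for Abcg1. The background was high, since 20.5% of 15952 genes were called higher and 21.3% lower in L4 than in L2-3, against 2 and 3 of the 5 members. The call of Abcg1 was lost when huFOXP2 mouse 2 or GFP mouse 3 was left out, with no mouse block and in FOXP2 mice alone, and those of Lpl and Apoe in GFP mice alone.

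**Figure D3:**
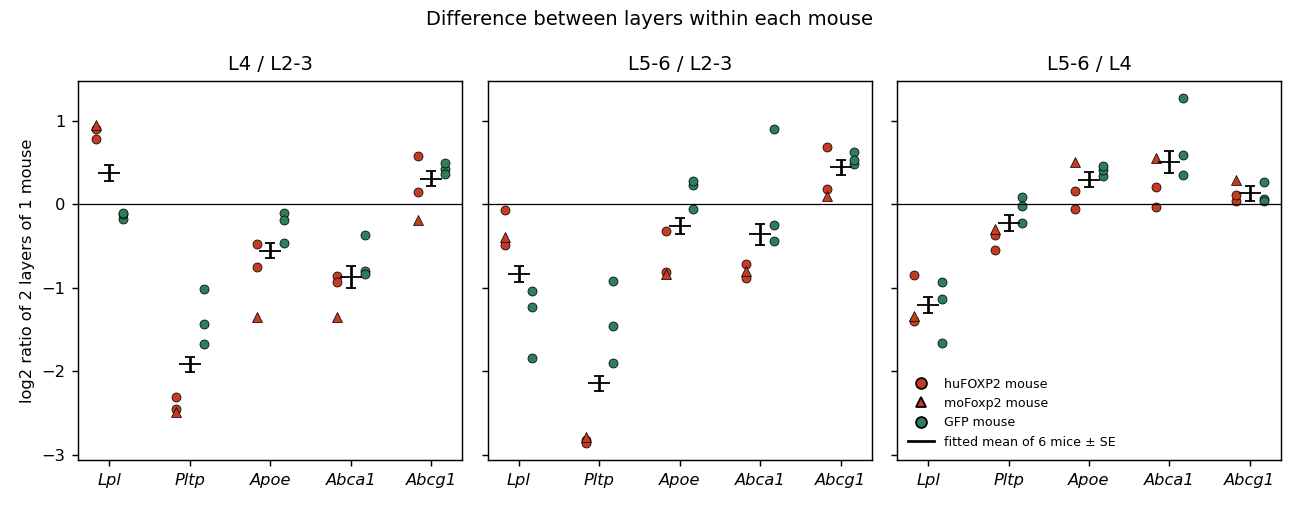
Log2 ratio of CPM between layers within each mouse (points) for the 5 genes, with FOXP2 mice left of GFP mice, and the fitted mean of 6 mice ± SE (bars). Pltp lies below 0 in every mouse in both ratios to L2-3, Lpl lies above 0 in the 3 FOXP2 mice and below 0 in the 3 GFP mice for L4 over L2-3, and Abca1 of GFP mouse 1 lies alone above 0 for L5-6 over L2-3. Contrasts between constructs in ratios to L2-3 rest on values on which genes were chosen, and were not tested.

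All 5 genes also passed between L5-6 and L2-3, where 21.6% of 15952 genes were called higher and 21.9% lower. Pltp (-2.14 ± 0.09, edgeR adjusted p = 1.25e-09) and Lpl (-0.83 ± 0.09, adjusted p = 7.7e-06) were lower in L5-6, each in 6 of 6 mice. Pltp averaged 31.8 ± 8.68 CPM in L5-6 against 145 ± 52.8 CPM in L2-3, and Lpl 105 ± 22.7 CPM in L5-6 against 192 ± 59.0 CPM in L2-3. Abcg1 was higher in L5-6 by 0.44 ± 0.09 (adjusted p = 0.000934) in 6 of 6 mice, at 17.9 ± 1.55 CPM in L5-6 against 13.3 ± 2.85 CPM in L2-3.

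The calls of Abca1 (-0.36 ± 0.13, edgeR adjusted p = 0.0394, lower in 5 of 6 mice) and Apoe (-0.26 ± 0.09, adjusted p = 0.0371, lower in 4 of 6) joined unlike means of the constructs. Abca1 was at -0.80 ± 0.19 in FOXP2 mice and 0.08 ± 0.19 in GFP mice, and Apoe at -0.67 ± 0.13 in FOXP2 mice and 0.15 ± 0.13 in GFP mice. These differences between constructs rest on L2-3 and were not tested. Both calls were lost without the mouse as a block and without any of huFOXP2 mouse 1, moFoxp2 mouse 1, GFP mouse 2 or GFP mouse 3, and that of Abca1 also without huFOXP2 mouse 2. Without GFP mouse 1 the value of Abca1 was -0.59 and 5 members were still called. For Lpl the values were -0.31 ± 0.13 in FOXP2 mice and -1.36 ± 0.13 in GFP mice, and for Pltp -2.85 ± 0.13 and -1.44 ± 0.13. The calls of Lpl and Abcg1 were lost in FOXP2 mice alone.

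Between L5-6 and L4, 3 of the 5 genes passed, where 21.9% of genes were called higher and 19.7% lower. Lpl was lower in L5-6 (-1.21 ± 0.09, edgeR adjusted p = 6.95e-07) in 6 of 6 mice, at 105 ± 22.7 CPM in L5-6 and 242 ± 32.7 CPM in L4, with -1.19 ± 0.13 in FOXP2 mice and -1.23 ± 0.13 in GFP mice. Abca1 was higher in L5-6 by 0.51 ± 0.13 (adjusted p = 0.00821) and Apoe by 0.30 ± 0.09 (adjusted p = 0.0192), each in 5 of 6 mice. In FOXP2 mice alone neither call held, with 0.24 ± 0.19 for Abca1 and 0.19 ± 0.13 for Apoe, against 0.77 ± 0.19 and 0.40 ± 0.13 in GFP mice. The call of Abca1 was also lost without moFoxp2 mouse 1 and that of Apoe without GFP mouse 3 and without the mouse block. Pltp (-0.23 ± 0.09, adjusted p = 0.0687) and Abcg1 (0.13 ± 0.09, adjusted p = 0.233) did not pass. Pltp passed without GFP mouse 1 at -0.25 (edgeR adjusted p = 0.00840) and without a count filter at -0.22 (adjusted p = 0.0161).

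Markers of non-neuronal cells differed between the same layers. The summed CPM of 10 markers of meningeal fibroblasts, cells of the membranes on the cortical surface, was 1244 to 1836 in L2-3 of FOXP2 mice and 336 to 1046 in L2-3 of GFP mice, against 22.4 to 79.0 in all L4 libraries and 27.8 to 43.1 in all L5-6 libraries. None of these markers was at 0 in every library of a group. The 10 markers of endothelial cells and pericytes summed to 1098 to 1566 CPM in L2-3 of FOXP2 mice and 781 to 935 CPM in L2-3 of GFP mice, and to 441 to 505 and 408 to 581 CPM in L4. All 10 markers of both lists were lower in L4 than in L2-3 and in L5-6 than in L2-3. In L2-3 the median log2 fold change of FOXP2 over GFP was 1.02 for the meningeal list and 0.60 for the endothelial list, with 0 of 10 called by edgeR in each, and 10 of 10 values positive in each. The 5 red blood cell markers summed to 287 to 645 CPM in L2-3 of FOXP2 mice and 155 to 246 CPM in L2-3 of GFP mice, without overlap. Of these, 4 were tested, with a median log2 fold change of 1.18, 4 of 4 positive and 0 called, and all 4 were lower in L4 and in L5-6 than in L2-3. The same layer held the higher Pltp and Abca1 values of FOXP2 mice, and the part of these cells in them was not tested.

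The 7 markers of layer 4 neurons summed to 296 to 382 CPM in L2-3 of FOXP2 mice and 554 to 583 CPM in L2-3 of GFP mice. In L4 they summed to 620 to 814 CPM in FOXP2 mice and 586 to 797 CPM in GFP mice, and in L5-6 to 342 to 501 and 169 to 395 CPM. The 8 markers of layer 2-3 neurons summed to 3126 to 3677 CPM in L2-3 of FOXP2 mice and 3767 to 4701 CPM in L2-3 of GFP mice. In L4 they summed to 4487 to 4965 CPM in FOXP2 mice and 3485 to 4915 CPM in GFP mice, and in L5-6 to 2272 to 2819 and 1167 to 2336 CPM. For both lists the group means had the same order of FOXP2 and GFP mice as those of Lpl in each layer, and the lowest library of Lpl, L5-6 of GFP mouse 1, was also the lowest of both. The 7 pan-neuronal markers summed to 6860 to 7547 CPM in L2-3 of FOXP2 mice and 7655 to 8603 CPM in L2-3 of GFP mice, again without overlap, and GFP mouse 1 had their lowest sum in L5-6 (5970 CPM). Astrocyte markers summed to 3598 to 5533 CPM in L2-3 of FOXP2 mice and 3334 to 4057 CPM in GFP mice, and microglia markers to 392 to 558 and 309 to 456 CPM. The median log2 fold change of FOXP2 over GFP in L2-3 was 0.55 for astrocyte and 0.42 for microglia markers. Of 10 in each list, 8 and 9 were positive and 0 were called. In L4 against L2-3, 1 astrocyte marker was higher and 8 lower, and 0 and 9 for microglia. In L5-6 against L2-3 the counts were 3 and 5 for astrocytes, and 5 and 1 for microglia. In L5-6 against L4, 7 astrocyte and 10 microglia markers were higher and 0 lower. The part of any of these cells in the values of Lpl, Apoe or Abca1 was not tested.

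**Figure D4:**
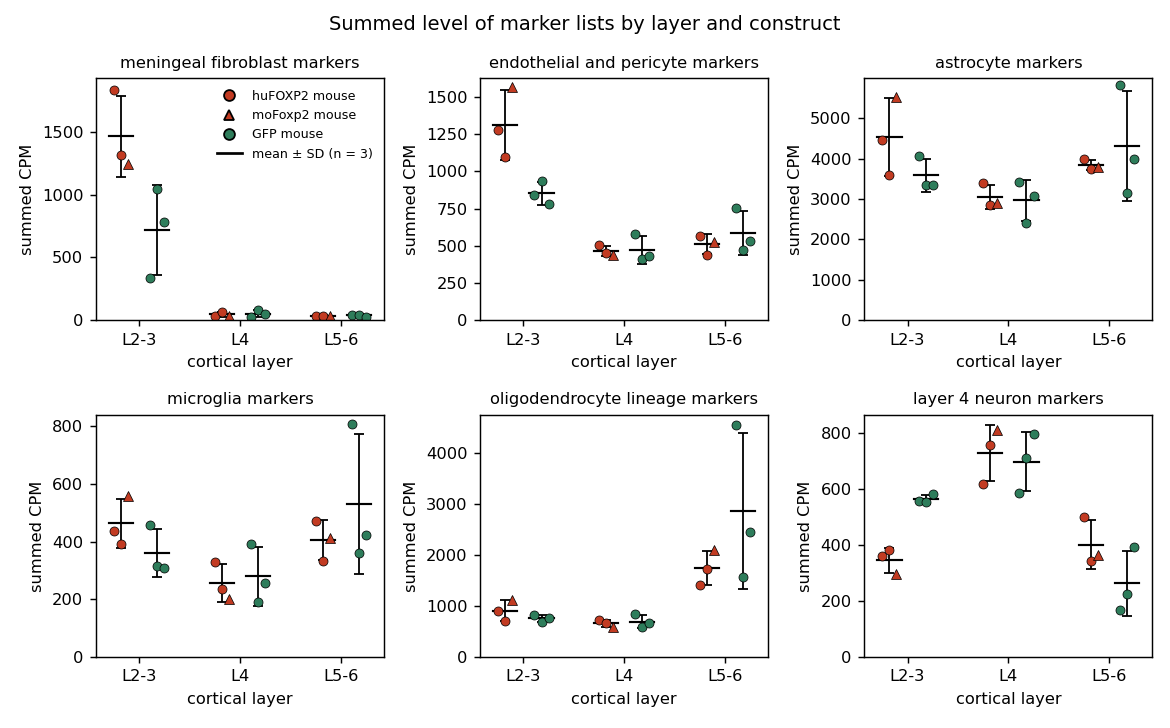
Summed CPM (linear axes from 0) of 6 marker lists by layer, FOXP2 mice left of GFP mice; points are libraries and bars the mean ± SD of 3 mice. Meningeal and endothelial sums are highest in L2-3 and higher there in all FOXP2 than in all GFP libraries, layer 4 neuron sums are lower there in all FOXP2 libraries, and GFP mouse 1 is the highest point for astrocyte, microglia and oligodendrocyte markers in L5-6.

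The rest of the pathway was read from 7 lists of 89 other genes. With edgeR, 0 genes of these lists were called between FOXP2 and GFP mice in L2-3 (78 tested), L4 (76) or L5-6 (77), with median log2 fold changes of 0.06, -0.04 and -0.16, against -0.01, 0.00 and -0.01 over all genes tested. At an unadjusted p under 0.05 there were 27, 4 and 8 of them, where all genes gave 2412 of 15241 in L2-3, 457 of 14544 in L4 and 946 of 15330 in L5-6. DESeq2 called 6, 0 and 0 of them, and 755, 32 and 56 of all genes. The difference of the effect between L5-6 and L4 called 0 of 79, and 0 with DESeq2. At an unadjusted p under 0.05 it gave 1 of 79, where all genes gave 892 of 15952.

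In L4 against L2-3, 12 of 79 pathway genes were higher (15.2%) and 31 lower (39.2%), where 20.5% of all genes tested were higher and 21.3% lower. The median was -0.09, against 0.04 over all genes. Of 10 lipases and lipase regulators tested, 0 were higher and 6 lower. Angptl4, an inhibitor of lipoprotein lipase, was at -1.37 ± 0.08, the related Angptl2 at -2.93 ± 0.26 and Lipa, the acid lipase of lysosomes, at -0.70 ± 0.10 (log2 difference of L4 over L2-3, each called). Of 6 apolipoproteins 3 were lower, led by Apod (-3.56 ± 0.28), with Clu, which encodes the lipoprotein component clusterin, at -0.36 ± 0.08. Of 14 regulators of the LXR and sterol-sensing group 6 were lower and 0 higher, among them Nr1h3, which encodes LXR alpha (-0.97 ± 0.17), and its partner Rxra (-1.04 ± 0.12). Nr1h3 was scarce, with a mean of 1.71 CPM over the 18 libraries.

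Of 13 receptors and uptake genes 4 were lower in L4 than in L2-3 and 2 higher. The fatty acid receptor Cd36 (-3.14 ± 0.18) and the lipoprotein receptor Lsr (-1.47 ± 0.13) were lower, while the sorting receptor Sort1 (0.36 ± 0.06) and the very-low-density lipoprotein receptor Vldlr (0.20 ± 0.06) were higher. The list of other sterol and phospholipid transporters, which also holds enzymes of cholesterol, split evenly, 7 higher and 7 lower of 19. Lcat, which esterifies cholesterol on particles, was at -1.17 ± 0.13 and the carrier Abcg2 at -0.69 ± 0.07, against 0.40 ± 0.09 for Abcg4, 0.49 ± 0.11 for Cyp46a1, the neuronal enzyme that hydroxylates cholesterol, and 0.79 ± 0.08 for Nceh1, a cholesterol ester hydrolase. Fatty acid genes gave 3 higher and 3 lower of 11, with Acsl4 (0.30 ± 0.05) among the higher and Fabp7, a binding protein of glial precursors and astrocytes, among the lower (-0.48 ± 0.09). Of 12 other reported LXR targets, 1 was higher and 5 lower, including Srebf1 (-0.49 ± 0.10).

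In L5-6 against L2-3, 19 of 79 pathway genes were higher (24.1%) and 25 lower (31.6%), where 21.6% of all genes were higher and 21.9% lower, with a median of -0.05, against 0.00 over all genes. Apod (-3.71 ± 0.28), Cd36 (-3.61 ± 0.18), Angptl2 (-2.77 ± 0.25) and Angptl4 (-1.23 ± 0.08) were again lower. Endothelial lipase Lipg (1.17 ± 0.15), the monoglyceride lipase Mgll (0.57 ± 0.08) and Clu (0.41 ± 0.08) were higher in L5-6. Per list, 2 lipases were higher and 5 lower, 1 apolipoprotein was higher and 1 lower, and 1 receptor was higher and 7 lower. Of the transporter list 8 were higher and 4 lower, of the fatty acid genes 2 and 2, of the sterol regulators 3 and 3, and of the other LXR targets 2 and 6.

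In L5-6 against L4, 29 of 79 were higher (36.7%) and 13 lower (16.5%), where 21.9% of all genes were higher and 19.7% lower, with a median of 0.13, against 0.01 over all genes. Lipg (2.14 ± 0.18), the transporter Abca8a (1.94 ± 0.23) and the retinoid X receptor Rxrg (1.92 ± 0.30) were the farthest up among those named, and Clu was at 0.77 ± 0.08. The first 3 were scarce, with means of 1.86, 3.56 and 3.16 CPM over the 18 libraries. Rxrg was uneven in L5-6, at 8.40 ± 7.34 CPM in GFP mice and 2.92 ± 1.28 in FOXP2 mice (SD, n = 3 each). Mylip, which encodes the LXR-induced ubiquitin ligase that degrades lipoprotein receptors, was lower (-0.87 ± 0.11), as were Vldlr (-0.58 ± 0.06) and Sort1 (-0.46 ± 0.06). The transporter list had 11 of 19 higher and 1 lower (Abcg4, -0.37 ± 0.09), the lipases 3 of 10 higher and 0 lower, and the apolipoproteins 2 of 6 higher and 0 lower. Receptors gave 3 higher and 5 lower, fatty acid genes 3 and 4, sterol regulators 5 and 2, and other LXR targets 3 and 3. In L5-6 all 10 oligodendrocyte markers and all 10 microglia markers were higher than in L4, and their part in the lists was not tested.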

How the data were processed

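The 18 libraries came from 6 mice, 1 per mouse and layer, and groups were taken from the sample titles. The authors deposited raw read counts per gene with no normalization; per the submitters' processing notes, STAR, HTSeq and mm10 were used. Not given in the sources used here are their versions, the gene models, the use of strand and the handling of reads with several matches. Of 54446 identifiers, 53229 matched GENCODE M21, version included, and 54409 when versions were ignored. Positions and exon lengths came from GENCODE M21.

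The test was edgeR's quasi-likelihood test on those counts (edgeR 4.0.16, R 4.3.3), with TMM factors and filterByExpr (minimum count 10, minimum total 15). P-values were adjusted by Benjamini-Hochberg over all genes tested, with a threshold of 0.05. Constructs were compared layer by layer. Layers were compared over all 18 libraries with the mouse as a block and a layer effect for each construct. CPM was computed on TMM-scaled totals, and likeness is Pearson r of log2(CPM + 0.5). A standard error is the log2 value over the root of its F statistic. The fits were also run on simulated counts, with the same dispersion for every gene and no differences between mice. That run cannot check the mouse block or the real spread between animals.

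The labels say that layers were pooled per mouse, which pairs libraries of 1 group and replicate number. Deviations from the group means correlated at 0.262 to 0.673 within a mouse, over 0.1 in 18 of 18 pairs. For GFP and huFOXP2 mice of the same number the correlations were -0.283 to 0.179, over 0.1 in 2 of 6 pairs. These numbers were not used as a block in the main tests between constructs. No replicate libraries were copies, with chi-square per degree of freedom of 7.55 to 54.3.

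Members, gene lists, comparisons and alternatives were chosen with earlier results of these data known. Named list genes were those past the threshold with a mean of at least 1 CPM, up to 4 per list and direction by size of change, of which the text gives examples, and the 5 genes most like each member. Alternatives were RLE factors, no count filter, DESeq2 1.42.0, each mouse left out, with and without a replicate block, and constructs taken alone. Depth was 10111149 to 23404528 counts per library.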

Additional observations from a re-analysis of the deposited data

Results flagged for a closer look

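The difference of Lpl between L4 and L2-3 was unlike in the constructs, and it was not called in GFP mice alone. It averaged 0.88 on the log2 scale over the 3 FOXP2 mice (all above 0) and -0.13 over the 3 GFP mice (all below 0). The difference between the constructs was not tested, because it rests on the L2-3 comparison on which Lpl was chosen.

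Abca1 in L5-6 over L2-3 was 0.90 on the log2 scale in GFP mouse 1, while the other 5 mice lay between -0.89 and -0.24. The 5 genes were examined in all 3 layer ratios, and chance gives about 1 such gap in 20 groups of like samples. The 6 mice hold 2 constructs whose means differed (-0.80 in FOXP2 and 0.08 in GFP mice), so that rate is a rough guide here. The L5-6 library of this mouse also had the highest mitochondrial share (7.50%) and the highest summed astrocyte, microglia and oligodendrocyte markers, and its L2-3 library the lowest summed meningeal markers among L2-3 libraries. Their part in the value was not tested.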

How the results depend on the processing

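Under 12 alternatives, Pltp and Abca1 remained called between L4 and L2-3, Pltp between L5-6 and L2-3, and Lpl between L5-6 and L4. For 1 construct alone, differences to L2-3 are not independent of the comparison that chose the set. Calls kept or lost there are given as a description. The number of members called was 5 between L4 and L2-3 and became 3 in GFP mice alone. Between L5-6 and L2-3 it was 5 and became 3 in GFP mice alone, 3 in FOXP2 mice alone, 3 without the replicate block, and 3 to 5 when 1 mouse was left out. Between L5-6 and L4 it was 3 and became 1 in FOXP2 mice alone, and 4 without a count filter and without GFP mouse 1, where Pltp was gained. Between FOXP2 and GFP mice in L2-3, where the genes were chosen, it was 2 and became 0 with RLE factors, 0 with huFOXP2 mice alone, 0 with huFOXP2 and GFP mice 1 and 2 with or without a replicate block, 1 in a fit over all 18 libraries, and 0 to 2 when 1 mouse was left out. The difference of the FOXP2 effect between L5-6 and L4 called 0, and 1 without a count filter (Abca1, -0.54, edgeR adjusted p = 0.00666, against 0.803 in the main test and up to 1 over the alternatives).

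Signs turned for values near 0 or that differ by construct. GFP mice alone gave -0.13 for Lpl between L4 and L2-3, and 0.15 for Apoe and 0.081 for Abca1 between L5-6 and L2-3. Apoe in L4 between FOXP2 and GFP mice was 0.093 with the replicate block, 0.029 for the same mice unblocked and 0.091 with huFOXP2 mice alone. The difference of the FOXP2 effect between L5-6 and L4 for Lpl was -0.0053 without the replicate block. Leaving out 1 mouse, FOXP2 minus GFP in L4 ranged from -0.22 to 0.0092 for Pltp, -0.36 to 0.18 for Apoe, -0.077 to 0.16 for Abca1 and -0.13 to 0.15 for Abcg1. In L5-6 it ranged from -0.037 to 0.36 for Lpl and -0.045 to 0.11 for Abcg1, and the difference of the effect between these layers from -0.17 to 0.19 for Lpl and -0.042 to 0.094 for Abcg1. The cause was not tested.

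Counts over all genes moved more. FOXP2 minus GFP called 11, 4 and 3 genes in L2-3, L4 and L5-6, against 865, 189 and 323 without a count filter and 755, 32 and 56 with DESeq2. L2-3 gave 195 without GFP mouse 1. With huFOXP2 and GFP mice 1 and 2, the replicate block gave 69 in L4 and 45 in L5-6. The same mice unblocked gave 2 higher and 3 lower genes in L4, and 1 and 1 in L5-6. In L2-3 these mice gave 5 higher and 4 lower genes with the block, and 4 and 3 unblocked. The difference of the effect between L5-6 and L4 called 1, against 255 without a count filter and 11 with DESeq2. Between layers the counts moved to 1683 (L4 and L2-3, GFP mice alone) and 2452 (L5-6 and L4, FOXP2 mice alone) from 6655 and 6631. Abcg1, with 122 to 428 counts per library, rests on the fewest counts of the members.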
